A study of Macaca mulatta with 6 samples.

Results

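The genes described here encode the nuclear subunits of the 5 complexes of the mitochondrial respiratory chain. They were taken from the deposited count table of 32386 rows by symbol, as NDUFA, NDUFB, NDUFC, NDUFS or NDUFV followed by a digit, the SDH and UQCR genes, CYC1, the COX genes of the structural subunits and the ATP5 genes. The pattern found 59 rows with 58 symbols, of which 26 belong to complex I, 4 to complex II, 6 to complex III, 11 to complex IV and 11 to complex V. No row carried the symbol of several other known subunits, among them NDUFV2, UQCRQ, UQCR10, UQCR11, ATP5F1D and ATP5PO. Counts and sums for complexes I, III, IV and V therefore cover only the subunits found, not the whole complex. SDHD was on 2 rows, and the row with the higher total stands for it. NDUFA4 carries a complex I name but is known as a complex IV subunit, so it and its paralog NDUFA4L2 were counted under complex IV. ATP5IF1, an inhibitor of complex V and not a subunit, matched the pattern and is included in the counts and sums of subunits below.

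The libraries came from rhesus macaque CFU-GM colonies, which are colonies of granulocytes and macrophages that grow from 1 progenitor cell. The transplanted cells were the animals' own mobilized CD34+ cells, edited with CRISPR/Cas9, and marrow CD34+ cells were collected again 15 months later and cultured in MethoCult for 14 days. Each picked colony was genotyped, and RNA was sequenced from 3 colonies with a TET2 mutation on 1 allele and predicted loss of function (UA), and from 3 colonies wild type for TET2 (WT). The WT colonies come from the same transplanted setting, and whether their cells had been in the edited graft is not stated. How many animals gave the colonies is not in the labels, so the p-values measure the spread between these samples, which may be technical. In bulk libraries such as these, fewer cells of a type and less RNA per cell cannot be told apart.

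Complexes I to IV pass electrons from NADH and succinate to oxygen, and complexes I, III and IV pump protons across the inner mitochondrial membrane while they do so. Complex V, the ATP synthase, lets the protons flow back and makes ATP. Most subunits are encoded in the nucleus and imported, a few are encoded in mitochondrial DNA, and the complexes are put together by dedicated assembly factors. Among blood cells, stem cells are known to rely much on glycolysis, and mature neutrophils are known to hold few mitochondria.

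Total counts were 17684447, 9861817 and 6334264 in UA replicates 1, 2 and 3, against 25485143, 10574104 and 12005869 in WT replicates 1, 2 and 3. TET2 itself had 238, 225 and 230 CPM in UA replicates 1, 2 and 3, against 79.3, 92.8 and 109 CPM in WT replicates 1, 2 and 3, where CPM are counts scaled to a common library total, with TMM factors. Every UA library lay above every WT library for TET2, with a log2 fold change of 1.30 (SE 0.16, adjusted p = 3.93e-05 by edgeR). The mutated allele's own reads were not counted apart, so UA and WT below name the labels. The libraries were not equally alike: the chi-square per gene, where 1 is counting error alone, was 4.30 to 5.27 between UA libraries and 12.2 between WT replicates 2 and 3, but 95.0 and 92.9 between WT replicate 1 and these. WT replicate 1 therefore stood apart, and results are given with and without it. Of the 13768 genes tested, 31.4% were called lower in UA and 34.6% higher, together 66.0%, where a call is an adjusted p under 0.05 by edgeR.

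Nuclear subunits of all 5 complexes were lower in UA colonies. Their summed level was 8775, 8552 and 8553 CPM in UA replicates 1, 2 and 3, against 26770, 17790 and 18380 CPM in WT replicates 1, 2 and 3. The UA sums lay close together, and each was below every WT sum, of which replicate 1 gave the highest. The mean UA sum was 41.1% of the mean WT sum, and 47.7% of the mean of WT replicates 2 and 3. Of the 58 symbols, 56 passed the filter on low counts, and 53 of these were called lower, which is 94.6% against 31.4% of all tested genes. No subunit was called higher, and NDUFB9, UQCRH and ATP5F1B were not called. A call with a log2 fold change under -1 was made for 43 subunits, or 76.8%, against 21.4% of all tested genes. The median log2 fold change of the tested subunits was -1.58, with a range of -2.69 to -0.19, against a median of 0.12 over all tested genes and a lower quartile of -0.89. All UA libraries lay below all WT libraries for 56 of 56 tested subunits, which held for 34.0% of all tested genes.

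**Figure D1:**
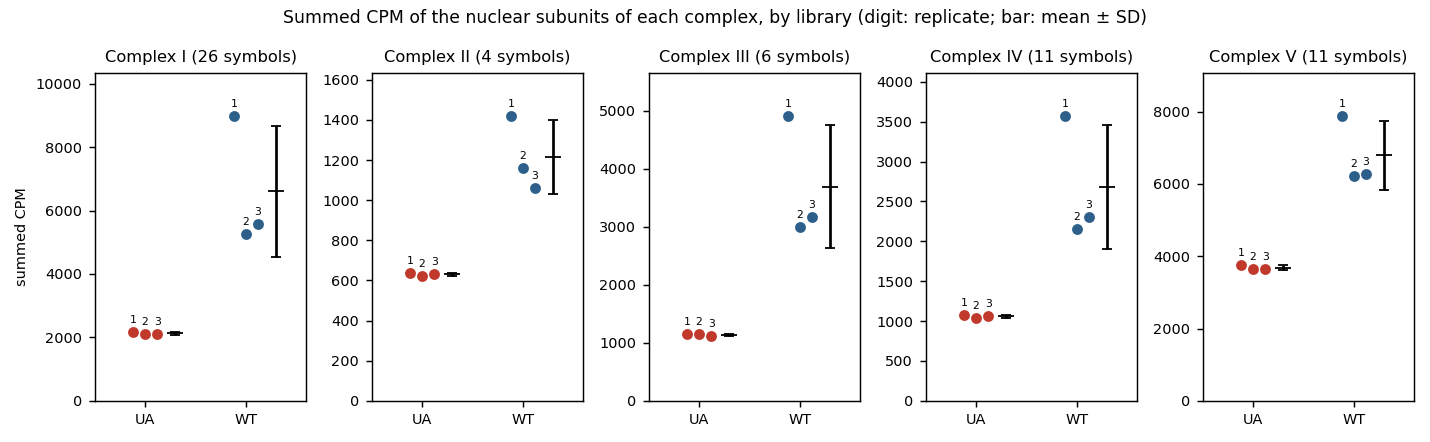
Each panel plots the summed CPM of the nuclear subunits of 1 complex, with UA libraries left of WT libraries, a point and its replicate number for each library, and a bar for the mean ± SD of 3 libraries. The UA points lie below every WT point in each panel, and WT replicate 1 gives the highest point in all 5.

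WT replicate 1 held more of these transcripts than the other WT libraries. It exceeded both for 52 of the 56 tested subunits, and its ratio to the mean of WT replicates 2 and 3 had a median of 1.58 and a range of 0.827 to 2.20, where the median over all tested genes was 0.989. Without it, 54 subunits were called lower, against 31.9% of the genes then tested, none was called higher, against 37.4%, and their median log2 fold change was -1.32. UA libraries stayed below both remaining WT libraries for 56 of 56 subunits, as they did for 37.6% of all tested genes. The SD of a subunit was 6.12% of its mean in UA and 29.3% in WT at the median, where all tested genes gave 10.9% and 25.5%. With the UA libraries summed, which leaves the spread to the WT libraries alone, 43 of the 56 subunits were called lower, against 17.5% of all tested genes, and none higher, against 21.4%.

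**Figure D2:**
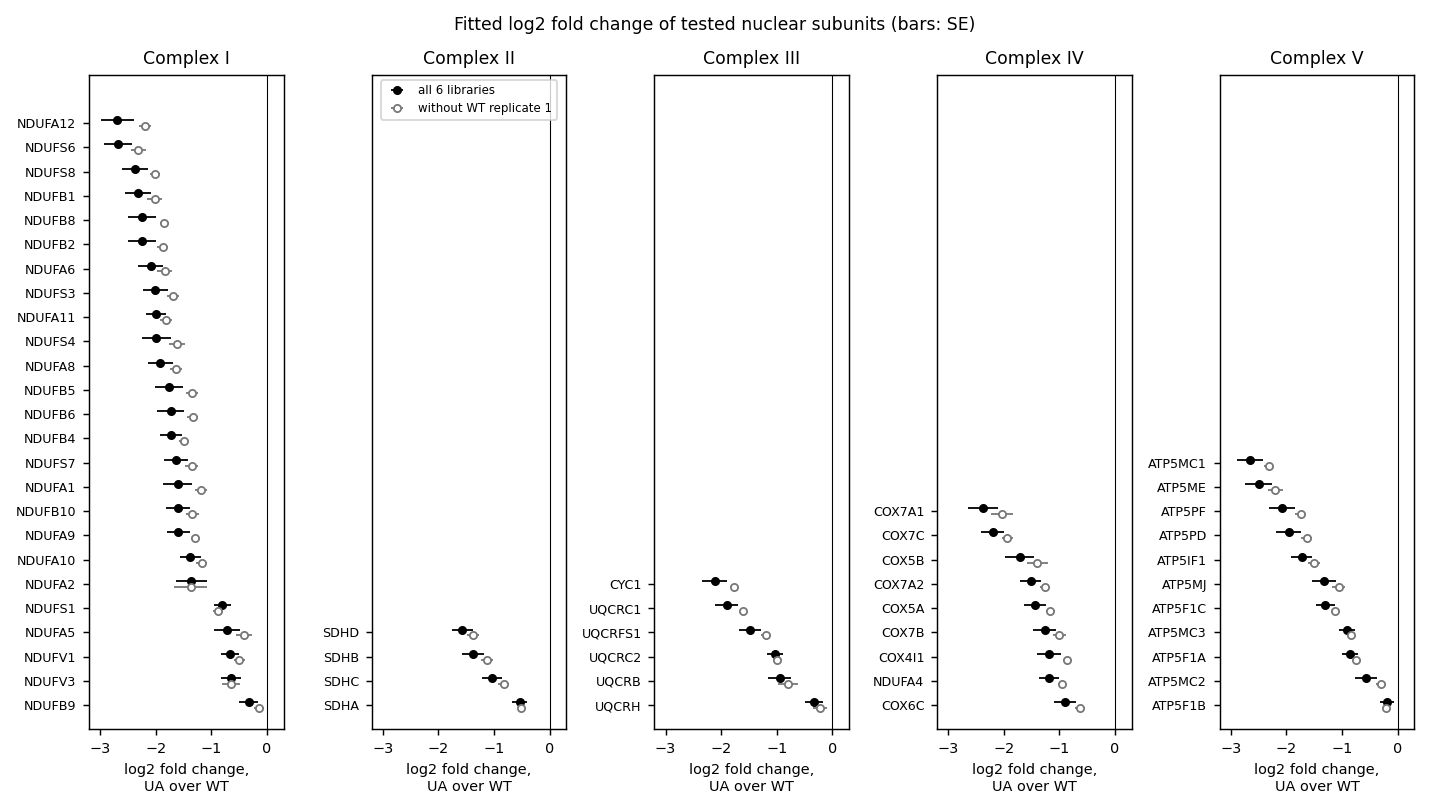
The fitted log2 fold change of UA over WT is plotted for the tested subunits by complex, with bars for its SE, from all 6 libraries (filled) and without WT replicate 1 (open). Every filled point lies left of 0, from -2.69 for NDUFA12 to -0.19 for ATP5F1B, and most open points lie nearer to 0 than the filled ones.

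Complex I, the NADH dehydrogenase, had 25 of 26 subunits called lower, against 31.4% of all tested genes, and a median log2 fold change of -1.73. Its summed subunits gave 2162, 2107 and 2099 CPM in UA replicates 1, 2 and 3, against 8982, 5258 and 5576 CPM in WT replicates 1, 2 and 3. The UA sums again lay together below all WT sums, and the mean UA sum was 32.1% of the mean WT sum. Without WT replicate 1, 25 subunits were called lower, against 31.9% of the genes then tested, and the median was -1.36. Core subunits carry the flavin and the iron-sulfur clusters, and the 6 found here were all called lower, with a median of -1.44. All 8 accessory subunits of the matrix arm found here were called lower, with a median of -1.79. Of the 12 found for the membrane arm, 11 were called lower, with a median of -1.75.

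Among the core subunits, NDUFS8, which carries iron-sulfur clusters close to the ubiquinone site, showed the largest change. It had 84.8, 88.6 and 81.8 CPM in UA replicates 1, 2 and 3, against 633, 341 and 349 CPM in WT replicates 1, 2 and 3. WT replicate 1 was the highest and the groups did not overlap. The log2 fold change was -2.38 (SE 0.24, adjusted p = 1.03e-05 by edgeR), and -2.01 without WT replicate 1. The gene lies on chromosome 14 from 6605998 to 6612464. NDUFS3, a subunit of the ubiquinone-binding module, had 48.1, 48.8 and 47.1 CPM in UA, against 270, 151 and 160 CPM in WT, in the order of the replicates. UA levels were nearly equal and all lay below WT, with a log2 fold change of -2.01 (SE 0.23, adjusted p = 2.28e-05 by edgeR). NDUFS7, which carries the last iron-sulfur cluster before ubiquinone, had 65.5, 57.4 and 74.4 CPM in UA, against 277, 159 and 177 CPM in WT. Its UA libraries were also all lower, with a log2 fold change of -1.64 (SE 0.22, adjusted p = 7.59e-05 by edgeR).

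NDUFS1 and NDUFV1, core subunits of the NADH-oxidizing tip, had smaller log2 fold changes than NDUFS8, NDUFS3 and NDUFS7. The core subunit NDUFV2 had no row. NDUFS1, the largest iron-sulfur subunit, had 122.9, 118 and 114 CPM in UA replicates 1, 2 and 3, against 182, 235 and 204 CPM in WT replicates 1, 2 and 3. Here WT replicate 1 was the lowest of its group and still above every UA library. The log2 fold change was -0.81 (SE 0.15, adjusted p = 0.000737 by edgeR), and -0.88 without WT replicate 1. NDUFV1, which binds NADH and flavin, had 127, 113 and 114 CPM in UA, against 224, 159 and 176 CPM in WT. The lowest WT library lay above the highest UA library, and the log2 fold change was -0.66 (SE 0.17, adjusted p = 0.0047 by edgeR). With the UA libraries summed, neither was called, at an edgeR adjusted p of 0.0975 for NDUFS1 and 0.19 for NDUFV1. Whether the tip differs from the other core subunits was not tested.

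NDUFA12 and NDUFS6, accessory subunits of the matrix arm that join late in assembly, gave the most negative log2 fold changes of all subunits with all 6 libraries, while ATP5MC1 had the most negative without WT replicate 1. NDUFA12, on chromosome 11 from 94779889 to 94827059, had 42.2, 47.4 and 38.2 CPM in UA replicates 1, 2 and 3, against 433, 186 and 207 CPM in WT replicates 1, 2 and 3. WT replicate 1 was 2.20 times the mean of the other WT libraries, the highest such ratio among the subunits, and the groups did not overlap. The log2 fold change was -2.69 (SE 0.30, adjusted p = 2.24e-05 by edgeR), and -2.19 without WT replicate 1. NDUFS6, which binds zinc, had 27.9, 22.6 and 24.4 CPM in UA, against 229, 117 and 134 CPM in WT. Every UA library was lower, with a log2 fold change of -2.68 (SE 0.26, adjusted p = 8.13e-06 by edgeR), and of -2.31 without WT replicate 1.

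The other matrix arm subunits spanned a wide range of log2 fold changes. NDUFA6 had a log2 fold change of -2.09, NDUFS4, whose human mutations cause Leigh syndrome, one of -1.99, and NDUFA9, which lies beside the ubiquinone module, one of -1.59. NDUFA2 had one of -1.36, from a row that spans only 300 bases and may share reads with other copies of the gene. NDUFV3, an accessory subunit of the NADH-oxidizing tip, had 28.7, 29.0 and 23.0 CPM in UA replicates 1, 2 and 3, against 40.8, 42.4 and 43.4 CPM in WT replicates 1, 2 and 3. Its WT libraries were alike, with no excess in replicate 1, and all lay above UA. Its log2 fold change was -0.64 (SE 0.18, adjusted p = 0.00978 by edgeR), and it was not called without UA replicate 3 (-0.55, edgeR adjusted p = 0.0589) or with the UA libraries summed (-0.59, edgeR adjusted p = 0.257). NDUFA5 had a log2 fold change of -0.72 (edgeR adjusted p = 0.0183), had one of -0.41 without WT replicate 1 (edgeR adjusted p = 0.0169), and was not called without UA replicate 2 (-0.63, edgeR adjusted p = 0.0836) or with the UA libraries summed (-0.69, edgeR adjusted p = 0.207).

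In the membrane arm, NDUFB1, NDUFB8 and NDUFB2 had log2 fold changes of -2.32, -2.25 and -2.25. NDUFA11 followed at -1.996 and NDUFA8 at -1.92. NDUFB5, NDUFB6 and NDUFB4 lay near the complex median, at -1.76, -1.73 and -1.72, with NDUFA1 at -1.61, NDUFB10 at -1.60 and NDUFA10 at -1.38. NDUFB9 was the exception in size. It had 134, 140 and 132 CPM in UA replicates 1, 2 and 3, against 210, 146 and 154 CPM in WT replicates 1, 2 and 3. The highest UA library lay just under the lowest WT library, and much of the difference in means came from WT replicate 1. Its log2 fold change was -0.33 (SE 0.17, adjusted p = 0.107 by edgeR), and -0.14 without WT replicate 1 (edgeR adjusted p = 0.172), while without WT replicate 2 it was called lower (-0.44, edgeR adjusted p = 0.0483).

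**Figure D3:**
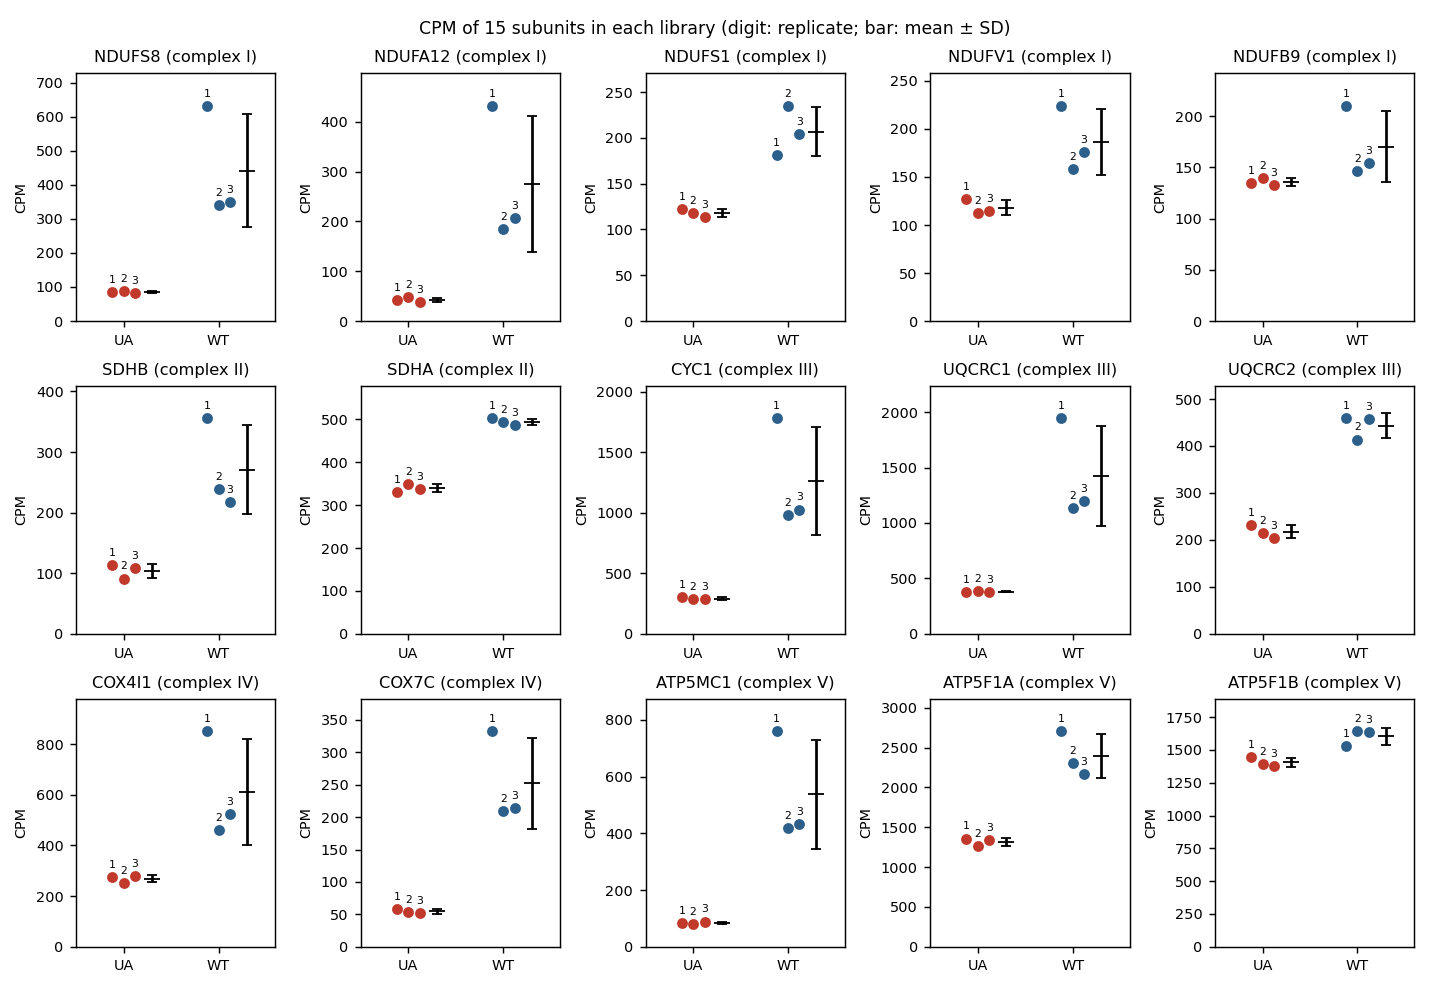
CPM of 15 subunits in each library, with UA left of WT, the replicate number above each point and a bar for the mean ± SD of 3 libraries. WT replicate 1 stands above the other WT libraries for NDUFS8, NDUFA12, CYC1 and UQCRC1 but not for NDUFS1, UQCRC2 or ATP5F1B, and UA libraries lie below WT libraries in every panel.

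Complex II, the succinate dehydrogenase, is also an enzyme of the citric acid cycle and has no mitochondrially encoded subunit. Its 4 genes were all called lower, against 31.4% of all tested genes. Their median log2 fold change was -1.21, and -0.98 without WT replicate 1. SDHA, the flavoprotein that oxidizes succinate, had 332, 349 and 337 CPM in UA replicates 1, 2 and 3, against 502, 493 and 486 CPM in WT replicates 1, 2 and 3. Both groups were tight, WT replicate 1 included, and did not overlap. The mean in UA was 68.7% of that in WT, with a log2 fold change of -0.54 (SE 0.13, adjusted p = 0.00324 by edgeR) that was not called with the UA libraries summed (edgeR adjusted p = 0.23). SDHB, the iron-sulfur subunit, had 113, 91.3 and 108 CPM in UA, against 355, 239 and 218 CPM in WT. UA libraries were lower throughout, with a log2 fold change of -1.38 (SE 0.20, adjusted p = 0.000133 by edgeR).

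The membrane anchor of complex II is formed by SDHC and SDHD, which hold its heme and ubiquinone site. SDHC had 116, 119 and 119 CPM in UA replicates 1, 2 and 3, against 303, 229 and 192 CPM in WT replicates 1, 2 and 3. Its UA libraries were all below WT, with a log2 fold change of -1.03 (SE 0.18, adjusted p = 0.000447 by edgeR). SDHD had 75.4, 64.1 and 70.4 CPM in UA, against 260, 201 and 164 CPM in WT. The groups did not overlap, and the log2 fold change was -1.57 (SE 0.19, adjusted p = 3.45e-05 by edgeR). These values are of the row on chromosome 14, which spans 21256 bases. A second SDHD row, on chromosome 13 and 480 bases long, had 70.7, 59.9 and 64.4 CPM in UA, against 247, 193 and 154 CPM in WT, so reads may be shared between the rows and the level of each is uncertain.

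Complex III passes electrons from ubiquinol to cytochrome c. Of its 6 nuclear genes found here, 5 were called lower, against 31.4% of all tested genes. The median log2 fold change of the 6 was -1.25, and -1.10 without WT replicate 1. Their sum was 1147, 1144 and 1108 CPM in UA replicates 1, 2 and 3, against 4909, 2994 and 3173 CPM in WT replicates 1, 2 and 3. At 30.7%, the mean UA sum was the smallest share of the mean WT sum among the complexes. It was 36.7% of the mean of WT replicates 2 and 3. CYC1 and UQCRC1, which had the highest CPM of these genes, weigh most in the sum. By median log2 fold change, complex I was the most negative, at -1.73 against -1.25 for complex III. CYC1, the heme-bearing cytochrome of the complex, had 306, 286 and 285 CPM in UA, against 1781, 985 and 1028 CPM in WT. WT replicate 1 stood well above the others, and no UA library came near the WT range. The log2 fold change was -2.11 (SE 0.22, adjusted p = 1.46e-05 by edgeR), and -1.78 without WT replicate 1. UQCRFS1, the Rieske iron-sulfur protein, had 150, 167 and 159 CPM in UA, against 593, 352 and 379 CPM in WT. UA was lower in every library, with a log2 fold change of -1.48 (SE 0.20, adjusted p = 8.41e-05 by edgeR). The UQCRFS1 row spans 825 bases and may share reads with other copies of the gene.

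The core proteins of complex III face the matrix and bear no redox group. UQCRC1 had 376, 390 and 380 CPM in UA replicates 1, 2 and 3, against 1943, 1132 and 1202 CPM in WT replicates 1, 2 and 3. UA levels were nearly equal, far below WT, with a log2 fold change of -1.90 (SE 0.20, adjusted p = 1.72e-05 by edgeR). UQCRC2 had 233, 214 and 205 CPM in UA, against 459, 414 and 458 CPM in WT. Its WT libraries were alike, and the log2 fold change of -1.03 (SE 0.14, adjusted p = 6.72e-05 by edgeR) was -0.9955 without WT replicate 1. The small accessory subunits came next. UQCRB, which binds ubiquinone, had 21.9, 21.4 and 16.8 CPM in UA, against 45.5, 35.95 and 34.8 CPM in WT. The groups were apart, with a log2 fold change of -0.95 (SE 0.21, adjusted p = 0.00208 by edgeR) that was not called with the UA libraries summed (edgeR adjusted p = 0.111). UQCRH, the hinge protein between cytochromes c1 and c, had 59.9, 65.4 and 62.8 CPM in UA, against 88.3, 75.6 and 71.1 CPM in WT. The groups lay close without overlap, and the log2 fold change of -0.32 (SE 0.16) was not called (edgeR adjusted p = 0.1).

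Complex IV, cytochrome c oxidase, has its catalytic subunits encoded in mitochondrial DNA, and the nuclear subunits surround them. All 9 tested nuclear genes were called lower, against 31.4% of all tested genes. Their median log2 fold change was -1.44, and -1.17 without WT replicate 1. Their sum was 1074, 1043 and 1063 CPM in UA replicates 1, 2 and 3, against 3573, 2157 and 2302 CPM in WT replicates 1, 2 and 3. The mean UA sum was 39.6% of the mean WT sum. COX4I1, the ubiquitous form of the subunit that binds adenine nucleotides, had 274, 252 and 281 CPM in UA, against 851, 462 and 522 CPM in WT. UA libraries were lower throughout, with a log2 fold change of -1.19 (SE 0.21, adjusted p = 0.000595 by edgeR), and of -0.86 without WT replicate 1. COX5A and COX5B, early partners in assembly, had log2 fold changes of -1.44 and -1.71. The COX5B row spans 429 bases and may share reads with other copies of the gene. COX5B had 13.8, 16.0 and 12.6 CPM in UA, against 63.8, 35.9 and 39.2 CPM in WT, with no overlap.

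COX7C, a small membrane subunit, had 58.9, 53.6 and 52.0 CPM in UA replicates 1, 2 and 3, against 332, 210 and 213 CPM in WT replicates 1, 2 and 3. WT replicate 1 was the highest and UA lay far below, with a log2 fold change of -2.20 (SE 0.20, adjusted p = 6.07e-06 by edgeR). A further row of 192 bases that the authors' deposited table describes as COX7C, outside the 59, had a log2 fold change of -2.26, and the 2 rows may share reads. NDUFA4 had 246, 230 and 254 CPM in UA, against 711, 467 and 478 CPM in WT. The libraries of the groups were well apart, with a log2 fold change of -1.18 (SE 0.18, adjusted p = 0.000187 by edgeR). COX6C had 127, 132 and 118 CPM in UA, against 315, 187 and 204 CPM in WT. Its UA libraries were all lower, with a log2 fold change of -0.91 (SE 0.20, adjusted p = 0.00218 by edgeR), and it was not called with the UA libraries summed (edgeR adjusted p = 0.0889). COX7B had a log2 fold change of -1.26.

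Of the tissue-specific or induced forms of complex IV subunits, COX7A1 was tested, while COX4I2 and NDUFA4L2 were at or near 0 counts. COX4I2, the form known from lung, had 4 counts in UA replicate 1 and 0 in the other 5 libraries, and NDUFA4L2, known as a hypoxia-induced paralog, had 0 counts in all 6. A count of 0 allows up to 0.163, 0.288 and 0.443 CPM in UA replicates 1, 2 and 3, and up to 0.137, 0.287 and 0.253 CPM in WT replicates 1, 2 and 3, for counting error only. Neither passed the filter, so neither has a fold change. The rows of SLC25A6, COQ4 and PET100, from the other gene lists below, were also at 0 in all 6 libraries. COX7A1, the form of subunit 7a typical of heart and skeletal muscle, had 10.2, 9.04 and 9.60 CPM in UA, against 70.4, 35.0 and 44.1 CPM in WT. Even the lowest WT library was well above UA, with a log2 fold change of -2.37 (SE 0.28, adjusted p = 2.8e-05 by edgeR). COX7A2, its widely expressed paralog, had 129, 122 and 128 CPM in UA, against 474, 294 and 317 CPM in WT, also without overlap. Its log2 fold change was -1.52 (SE 0.19, adjusted p = 4.83e-05 by edgeR). Of the counts of this pair, COX7A1 held 7.07% ± 0.244 in UA and 11.9% ± 1.18 in WT (n = 3 each, SD).

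Complex V had 10 of its 11 genes found here called lower, against 31.4% of all tested genes, with a median log2 fold change of -1.33. Without WT replicate 1, it had 11 of 11 called lower, against 31.9% of the genes then tested, with a median of -1.12. Its sum was 3757, 3634 and 3649 CPM in UA replicates 1, 2 and 3, against 7883, 6223 and 6270 CPM in WT replicates 1, 2 and 3. The groups did not overlap, and the mean UA sum was 54.2% of the mean WT sum. The catalytic F1 head showed unequal changes. ATP5F1B, the catalytic beta subunit, had 1444, 1394 and 1381 CPM in UA, against 1530, 1642 and 1638 CPM in WT. WT replicate 1 was the lowest WT library here, and every UA library was still below it. The log2 fold change of -0.19 (SE 0.13) was not called (edgeR adjusted p = 0.204), while without WT replicate 1 it was -0.21 and called (edgeR adjusted p = 0.00211). With library size alone in place of TMM it was -0.03.

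ATP5F1A, the alpha subunit that alternates with beta in the head, had 1359, 1260 and 1335 CPM in UA replicates 1, 2 and 3, against 2705, 2302 and 2170 CPM in WT replicates 1, 2 and 3. All UA libraries were lower, with a log2 fold change of -0.86 (SE 0.14, adjusted p = 0.000246 by edgeR) that was not called with the UA libraries summed (edgeR adjusted p = 0.0769). The ratio of ATP5F1A to ATP5F1B counts was 0.941, 0.904 and 0.967 in UA, against 1.77, 1.40 and 1.32 in WT. The ratio was lower in 3 of 3 UA libraries, with a difference of -0.67 on the log2 scale (two-sided exact permutation p = 0.1, the smallest that 3 against 3 libraries can give, and 0.1 after Benjamini-Hochberg adjustment over the 3 ratios tested). These ratios were chosen after the values had been seen. ATP5F1C, the rotating gamma subunit, had 176, 181 and 181 CPM in UA, against 540, 369 and 416 CPM in WT. Its groups were apart, with a log2 fold change of -1.30 (SE 0.17, adjusted p = 5.22e-05 by edgeR).

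The rotor ring of complex V is built from c subunits that ATP5MC1, ATP5MC2 and ATP5MC3 encode, and in human these genes give the same mature protein with different import sequences. ATP5MC1, on chromosome 16 from 40659701 to 40662739, had 84.6, 81.4 and 89.0 CPM in UA replicates 1, 2 and 3, against 760, 418 and 434 CPM in WT replicates 1, 2 and 3. No UA library came near the WT range, with a log2 fold change of -2.66 (SE 0.23, adjusted p = 4.28e-06 by edgeR), and of -2.32 without WT replicate 1. ATP5MC3 had 250, 249 and 230 CPM in UA, against 498, 445 and 427 CPM in WT. The groups did not overlap, and the log2 fold change of -0.91 (SE 0.14, adjusted p = 0.000162 by edgeR) was not called with the UA libraries summed (edgeR adjusted p = 0.0589). ATP5MC2 had 141, 153 and 152 CPM in UA, against 296, 170 and 197 CPM in WT. WT replicate 1 stood out, and WT replicates 2 and 3 were not far above UA. Its log2 fold change was -0.57 (SE 0.20, adjusted p = 0.0261 by edgeR), and -0.30 without WT replicate 1 (edgeR adjusted p = 0.00869). It was not called with library size alone (-0.39, edgeR adjusted p = 0.0664) or without UA replicate 1, 2 or 3 (edgeR adjusted p = 0.0941, 0.0713 and 0.0697).

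The share of ATP5MC1 among the counts of the c ring genes was 17.8%, 16.8% and 18.9% in UA replicates 1, 2 and 3, against 48.9%, 40.5% and 41.0% in WT replicates 1, 2 and 3. Every WT share lay well above every UA share. ATP5MC2 held 31.2% ± 1.31 in UA and 18.0% ± 1.35 in WT, and ATP5MC3 held 50.9% ± 1.86 in UA and 38.5% ± 5.71 in WT (n = 3 each, SD). The ratio of ATP5MC1 to ATP5MC3 counts was 0.339, 0.327 and 0.387 in UA, against 1.52, 0.940 and 1.02 in WT. It was lower in 3 of 3 UA libraries, with a difference of -1.70 on the log2 scale (two-sided exact permutation p = 0.1, adjusted p = 0.1). The ratio of COX7A1 to COX7A2 was also lower in 3 of 3 UA libraries, with a difference of -0.83 on the log2 scale and the same exact permutation p and adjusted p of 0.1.

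**Figure D4:**
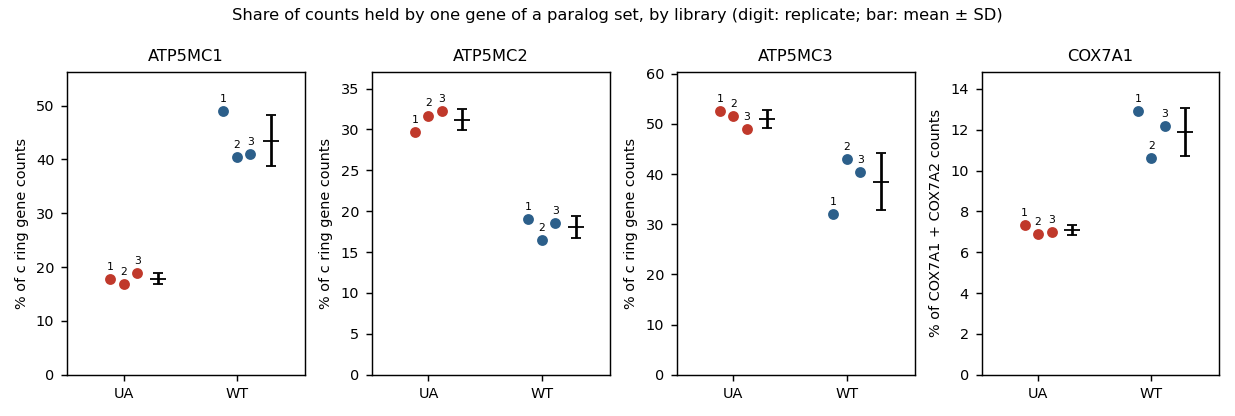
Shares of counts held by 1 gene of a paralog set, in percent, by library, with UA left of WT and a bar for the mean ± SD of 3 libraries. The UA and WT points do not overlap in any panel, with ATP5MC1 and COX7A1 lower in UA and ATP5MC2 and ATP5MC3 higher in UA.

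The 2 genes of the peripheral stalk found here and the 2 of the membrane part had median log2 fold changes of -2.02 and -1.91. The 3 genes of the F1 head had a median of -0.86, and the 3 of the c ring one of -0.91. Rows described as subunits b and g, with no matching symbol, were not in these medians. Their log2 fold changes were -1.14 and -1.62, less negative than the stalk and membrane medians. ATP5ME, subunit e of the membrane part, had 42.1, 35.5 and 31.5 CPM in UA replicates 1, 2 and 3, against 280, 144 and 195 CPM in WT replicates 1, 2 and 3. UA lay far below WT, with a log2 fold change of -2.50 (SE 0.24, adjusted p = 8.98e-06 by edgeR). ATP5PF, of the peripheral stalk that holds the head still, had 70.6, 75.9 and 62.9 CPM in UA, against 417, 231 and 240 CPM in WT. There was no overlap, and the log2 fold change was -2.09 (SE 0.23, adjusted p = 2.19e-05 by edgeR). ATP5PD, also of the stalk, had a log2 fold change of -1.96, and ATP5MJ, a small membrane subunit, one of -1.33. ATP5IF1, which is not a subunit but blocks the enzyme from running backwards, had a log2 fold change of -1.73. The difference between head and stalk was not tested.

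Most assembly factors were lower in UA as well. Of 52 listed, 43 were tested, and 34 were called lower and 2 higher, against 31.4% and 34.6% of all tested genes, with a median log2 fold change of -1.41. When the UA libraries were summed, fewer assembly factors were called lower, as was so over all tested genes. UQCC2, needed for the cytochrome b of complex III, had 5.04, 5.96 and 6.06 CPM in UA replicates 1, 2 and 3, against 72.9, 30.5 and 41.8 CPM in WT replicates 1, 2 and 3. The groups were far apart, with a log2 fold change of -3.10. COA6 and COX17, which bring copper to complex IV, had log2 fold changes of -3.08 and -2.62, and TIMMDC1, of complex I assembly, and TMEM70, of complex V assembly, both one of -2.37. NUBPL, which delivers iron-sulfur clusters to complex I, and COX18, an insertase for complex IV, were higher by 0.74 and 0.70 on the log2 scale (adjusted p = 0.019 and 0.0268 by edgeR). Neither was called with the UA libraries summed, or without UA replicate 1 or 2.

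Genes encoded in mitochondrial DNA were also lower, in 7 of the 8 tested of 13 listed, against 31.4% of all tested genes, with a median log2 fold change of -1.10. Summing the UA libraries left fewer of them called lower, as was so over all tested genes. Without WT replicate 1 all 8 were called lower, against 31.9% of the genes then tested. MT-ND4, of complex I, had 198, 194 and 201 CPM in UA replicates 1, 2 and 3, against 893, 432 and 494 CPM in WT replicates 1, 2 and 3. WT replicate 1 stood apart here as well, and the log2 fold change was -1.62 (SE 0.24, adjusted p = 0.000173 by edgeR). MT-CO2, a catalytic subunit of complex IV, had 2955, 2873 and 2879 CPM in UA, against 4606, 3158 and 3279 CPM in WT. UA was lower in every library, yet the log2 fold change of -0.34 was not called (edgeR adjusted p = 0.0823), while without WT replicate 1 it was -0.14 and called (edgeR adjusted p = 0.0187). Without WT replicate 1, the list's median was -0.80. Another list held electron carriers, ubiquinone synthesis genes, AIFM1, which acts with complex I, and NDUFAB1, a complex I subunit whose symbol is outside the pattern. Of its 13 tested members, 7 were lower and none higher, against 31.4% and 34.6% of all tested genes, with a median of -1.26. Among those lower were ETFDH at -1.55 and COQ6 at -1.57. NDUFAB1 had 0.759, 1.83 and 0.443 CPM in UA, against 4.89, 1.63 and 1.52 CPM in WT, in the order of the replicates. At these low levels its groups overlapped, and the log2 fold change of -1.41 was not called (edgeR adjusted p = 0.102).

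Of 14 tested regulators of the chain, 6 were lower and 4 higher, against 31.4% and 34.6% of all tested genes, so their counts lay near the background. They had a median log2 fold change of 0.13, close to the 0.12 of all tested genes. MYC, which drives many genes of mitochondrial biogenesis, had 80.8, 76.9 and 68.8 CPM in UA replicates 1, 2 and 3, against 320, 345 and 344 CPM in WT replicates 1, 2 and 3. Its WT libraries were alike, replicate 1 included, and the log2 fold change was -2.15 (SE 0.15, adjusted p = 8.93e-07 by edgeR). TFB1M, a methyltransferase of mitochondrial ribosomal RNA, ESRRA, an estrogen-related receptor, and TFB2M, a mitochondrial transcription factor, had log2 fold changes of -2.60, -2.46 and -1.95. NRF1, a transcription factor for many respiratory chain genes, was higher, with 56.1, 48.5 and 57.7 CPM in UA, against 32.3, 30.9 and 34.1 CPM in WT. The groups did not overlap, and its log2 fold change was 0.74 (SE 0.17, adjusted p = 0.00302 by edgeR). GABPA, another such factor, and PPRC1, a coactivator, were higher by 1.33 and 0.61 on the log2 scale (adjusted p = 0.00905 and 0.0351 by edgeR). In WT replicate 1, GABPA was at 0.303 times the mean of the other WT libraries. PPARGC1A, a coactivator of mitochondrial biogenesis, had 63 counts in the UA libraries and 0 in the WT libraries, at least 26.1-fold higher when the WT group is set to a floor of 3 counts in all. With the UA libraries summed, NRF1 and PPRC1 were not called.

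**Figure D5:**
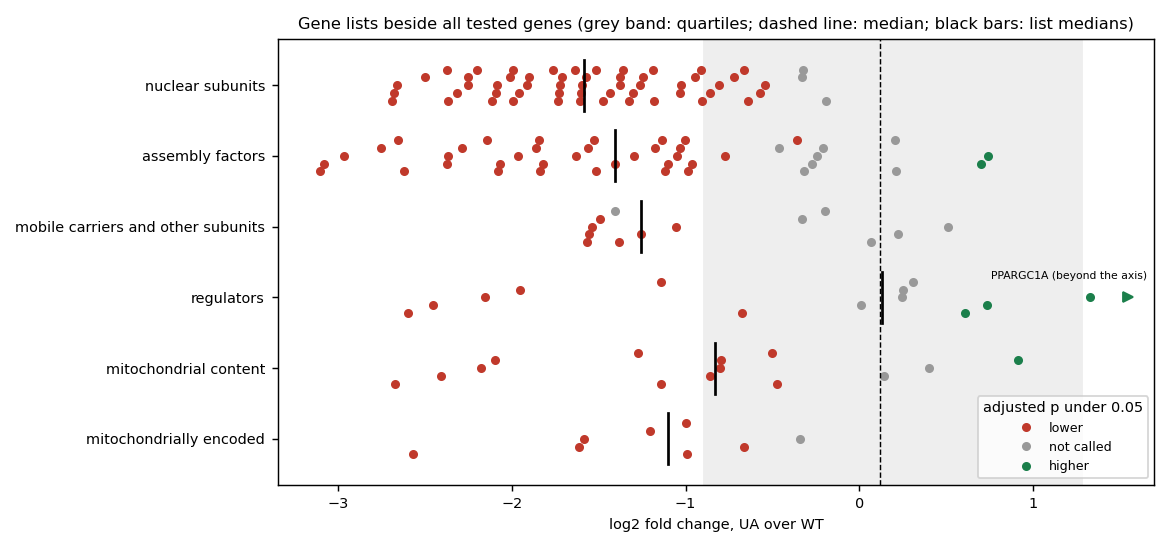
Log2 fold change of UA over WT for the tested members of 6 gene lists, 1 point a gene coloured by its call, with a black bar at each list's median, a grey band for the quartiles of all tested genes and a dashed line for their median of 0.12. The bar of the nuclear subunits lies at -1.58 and that of the assembly factors at -1.41, both left of the band, while that of the regulators lies at 0.13, and PPARGC1A lies beyond the axis.

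Among genes for the rest of the mitochondrion, 11 of 14 tested were lower and 1 was higher, against 31.4% and 34.6% of all tested genes, with a median log2 fold change of -0.83. With the UA libraries summed, fewer were called, as was so over all tested genes. TIMM23 and TOMM40, channels of protein import, had log2 fold changes of -2.68 and -2.18, PHB1, a prohibitin, one of -2.41 and VDAC3, an outer membrane channel, one of -2.10. CS encodes citrate synthase, whose enzyme activity, not measured here, is often used to gauge mitochondrial content. CS RNA was at 425, 430 and 411 CPM in UA, against 597, 620 and 575 CPM in WT, in the order of the replicates. Both groups were tight and apart, with a log2 fold change of -0.50 (SE 0.13, adjusted p = 0.00508 by edgeR) that was not called with the UA libraries summed (edgeR adjusted p = 0.28). MFN1, a mitofusin, was higher by 0.91 on the log2 scale (adjusted p = 0.00183 by edgeR), and was not called with the UA libraries summed (edgeR adjusted p = 0.0535).

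Markers of several cell types differed between the same libraries. The counts of markers called higher or lower stand against 34.6% and 31.4% of all tested genes. Primary granule markers of CFU-GM cells summed to 24300 to 25150 CPM in UA and 1361 to 1520 CPM in WT, with 5 of 6 higher and 1 lower in UA, and monocyte and macrophage markers to 7915 to 8063 CPM in UA and 1636 to 2073 CPM in WT, with 5 of 7 higher and 1, CD14, lower. LYZ, which granulocytes also make, carried the monocyte and macrophage sum in UA, and the other 6 markers gave 400.8 to 414.8 CPM in UA and 1181 to 1539 CPM in WT, where CD14 was high. Stromal and endothelial markers summed to 1197 to 1224 CPM in UA and 142.6 to 145.7 CPM in WT, with 9 of 10 higher and 1 lower, and SPARCL1 at 0 in every WT library. Megakaryocyte markers summed to 822.5 to 844.4 CPM in UA and 428.6 to 477.8 CPM in WT, with 4 of 8 higher and 1 lower. The UA range of these sums lay above the WT range, except for the monocyte and macrophage markers other than LYZ. Eosinophil, basophil and mast cell markers summed to 1467 to 1583 CPM in UA and 161.2 to 188.1 CPM in WT, with 4 of 5 higher and 1 lower. Erythroid markers summed to 30.0 to 41.5 CPM in UA and 209.3 to 258.6 CPM in WT, with 2 of 4 tested higher and 2 lower and HBA1 at 0 in all libraries. Lymphoid markers summed to 203.4 to 226.0 CPM in UA and 244.5 to 285.3 CPM in WT, with 4 of 7 tested higher and 3 lower, and CD3E at 0 in every WT library. The part of these markers in the lower subunit levels was not tested.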

How the data were processed

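RNA of 6 colonies was made into libraries with the SMART-Seq V4 and Nextera XT kits, per the labels' protocols, which mark neither strand nor molecule. The submitters' processing notes name the build Mmul_8.0.1 and bcl2fastq, and name no aligner or counter. The authors deposited raw counts per gene. They also deposited a table of a comparison whose groups are not named, which per the file headers holds a signal (mean normalized count), a log2 fold change, a test statistic (score) and p-values. From that table only symbols, descriptions and coordinates were used, and its values were not used here. No genome or sequence table was used.

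The members and gene lists were chosen with earlier results of these data known. Of the 59 member rows, 48 were named by a reference table of gene names, 9 only by the deposited symbol and 2 by the row's own name. Counts were tested with edgeR 4.0.16 under R 4.3.3, with robust quasi-likelihood F-tests, TMM scaling (factors 0.86 to 1.07) and filterByExpr (minimum count 10, minimum total 15), with the label as the only term. P-values were Benjamini-Hochberg adjusted over all 13768 tested genes, with calls at an adjusted p under 0.05. The common biological coefficient of variation came to 0.232. CPM were scaled by TMM factor, and SDs are over 3 libraries. Depth ran from 6334264 to 25485143 counts, so 0 counts set an upper limit of 0.443 CPM in the shallowest library and 0.137 CPM in the deepest. The fit was tested on simulated data. Values in every library are given for core and catalytic subunits, of which 1 is not reported here, isoform pairs, and in each complex the 3 most negative and 2 least negative log2 fold changes. Gene lengths were not used, so levels of different genes are not comparable. Shares and ratios of genes were taken from raw counts and compared only between libraries. Alternatives were DESeq2 1.42.0, limma-voom (limma 3.58.1), other scalings, filters and thresholds, a replicate block, the UA libraries summed, leaving out each library, and other row assignments. Two-sided exact permutation tests were run on 3 ratios.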

Additional observations from a re-analysis of the deposited data

How the results depend on the processing

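No log2 fold change of a tested subunit changed sign under any of the alternatives run, and all 56 kept their call with DESeq2 size factors, the DESeq2 test, limma-voom, no low-count filter, robust=FALSE and an adjusted p under 0.1. With the UA libraries summed, 2410 genes were called lower and 2950 higher, 10 subunits lost their call and 0 assembly factors were called higher. ATP5MC2 lost its call with library size alone, with upper-quartile factors (edgeR adjusted p = 0.0546) and with at least 5 CPM in 3 libraries (edgeR adjusted p = 0.0511). Leaving out each library in turn gave 51 to 54 subunits called lower, 0 called higher, and medians of -1.70 to -1.32 for all subunits and -1.89 to -1.36 for complex I, where -1.36 came without WT replicate 1, and 0 to 2 assembly factors called higher. Without the rows that span under 1000 bases, chosen after the data were seen, the complex III median was -1.03. Library size alone moved the median of all genes from 0.12 to 0.28. Replicate numbers were shared between labels, but same-numbered libraries did not deviate together (correlations of 0.0129, 0.022 and 0.0132). With the replicate number as a block, 4174 genes were called lower and 4765 higher, 53 subunits were called lower and 0 higher, and no subunit changed its call. The cause of these shifts was not tested. COX4I2 and NDUFA4L2 had too few counts for a fold change. Among genes of the other lists, MFN2, COQ7 and CSF1R, which were not called, changed sign without WT replicate 1, from 0.14 to -0.19, from 0.22 to -0.02 and from 0.20 to -0.04.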

Other observations

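7 further rows carry respiratory chain subunit descriptions in the authors' deposited table but no matching symbol, and 6 of them were tested. All 6 were called lower in UA, against 31.4% of all tested genes. Their log2 fold changes were -1.46 for the COX6B1 row, -1.62 for a row of ATP synthase subunit g and -1.14 for one of subunit b. They were -1.61 and -1.43 for 2 rows described as the COX7A-related protein, and -2.26 for the second COX7C row. The COX6B1 row, of a subunit that faces the intermembrane space, had 61.6, 59.6 and 69.0 CPM in UA replicates 1, 2 and 3, against 214, 145 and 161 CPM in WT replicates 1, 2 and 3. The COX7B2 row had 0.163 CPM in UA replicate 1 and was at 0 elsewhere. The subunit g, subunit b and second COX7C rows and 1 of the COX7A-related rows span 312, 771, 192 and 345 bases, so they may share reads with other copies of these genes.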
